A study of Mus musculus with 30 samples.

Results

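Sham surgery and saline injection are both control treatments, and the astrocytes taken 1 day after each serve as controls for injured ones. The 4 sham arrays and 4 saline arrays of 1 day, 8 of the 30 arrays in the series, were chosen by sample title and compared with each other across all genes. The sham arrays carried more RNA of blood vessel genes, led by the drug efflux pump Abcb1a (16.9-fold) and the tight junction protein Cldn5 (14.4-fold), and of 15726 genes tested, 804 differed, 459 higher and 345 lower after sham surgery. Although all mice are labelled male, 3 of the 4 saline arrays had Y-linked genes near the floor and high Xist, so the comparison is also given against saline array 1, the other one, alone, where 114 genes were called. Vessel genes were called there too, with 5 of 13 endothelial markers higher against 8 with all saline arrays. Against all 4 saline arrays 4 myelin and 6 glucocorticoid-responsive genes were higher, with list medians of log2 2.29 and 1.32. The medians were 2.15 and 0.80 against saline array 1, which has no replicate. Of the injury genes Gfap, Vim, Lcn2 and Serpina3n, Serpina3n was called at 2.53-fold against all 4, but not against saline array 1 (adjusted p = 0.605) or without sham array 3 (0.139).

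The labels describe all mice of both groups as young adult males of the Tg(Aldh1l1-eGFP) OFC789Gsat reporter line on a Swiss Webster background, an outbred stock, and no other allele is given. In this line the promoter of Aldh1l1, a folate enzyme gene of astrocytes, drives green fluorescent protein. Brains were dissociated with papain and fluorescent cells were collected by FACS, so any cell that carries the reporter, or sticks to one that does, can enter the sort. Sham mice had the stroke surgery without occlusion of the middle cerebral artery, and saline mice received endotoxin-free saline as the control for an intraperitoneal injection of lipopolysaccharide (LPS). The remaining groups were middle cerebral artery occlusion (MCAO) at 1 day (5 arrays), LPS at 1 day (5 arrays), and sham and MCAO at 3 and 7 days (3 arrays each). Replicates are described as biological, but not as 1 mouse each, and the p-values can speak only for the spread among these arrays. The labels do not say whether operated and injected mice were prepared together, so surgery, anaesthesia, injection and day of preparation cannot be told apart. The sex-linked genes of saline arrays 2, 3 and 4, given below, cannot be told apart from the treatment on those arrays either.

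As background, sham surgery involves anaesthesia, incision and handling, and stress of this kind releases glucocorticoids from the adrenal gland. Glucocorticoids bind a nuclear receptor that most brain cells carry and switch on a set of target genes within hours. Astrocytes wrap brain capillaries with their endfeet, against which endothelial cells, pericytes and smooth muscle cells lie, and astrocyte membranes also contact myelin. Astrocytes that react to injury raise intermediate filament and acute phase genes, while resting astrocytes are known for glutamate uptake, potassium buffering and gap junction coupling.

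Values are log2 of the deposited intensities, 1 probe set per gene, and each difference is sham minus saline on that scale, with the standard error (SE) of a limma model over all 30 arrays and a p-value adjusted by the Benjamini-Hochberg method over all 15726 genes. A gene was called at an adjusted p under 0.05, and "higher" and "lower" are used of called genes. Counts of list members at an unadjusted p under 0.05 are given without the share of all genes, and are not read as a result. A level of log2 5 was the floor of the filter, so folds that start near it are not exact. The number of arrays sets the precision.

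The arrays were not all alike. Their maximum intensities fell into 16 bright arrays, from 31338 to 35553, and 14 dim ones, from 20222 to 26595. All 4 sham arrays and saline arrays 1 and 2 were bright, and saline arrays 3 and 4 were dim. Sham arrays correlated with each other across genes at r of 0.979 to 0.993, saline arrays at 0.943 to 0.99, and sham with saline arrays at 0.93 to 0.974, where genes are not independent replicates. Saline array 2 differed by over 2-fold from the mean of its group's other arrays in 1823 genes and saline array 1 in 1220, and sham array 3 in 581 against 61 to 109 for the other sham arrays. Saline array 3 carried interferon genes at levels near those after LPS, described further on.

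3 saline arrays went against their male label. Xist RNA is made from the inactive X chromosome of female cells, and Eif2s3y, Kdm5d and Uty lie on the Y chromosome. Eif2s3y read 11.06, 11.21, 10.94 and 11.03 on sham arrays 1 to 4, 11.72 on saline array 1 and 3.81, 3.58 and 3.58 on saline arrays 2, 3 and 4. Xist read 6.88, 6.52, 6.77 and 6.38 on the sham arrays, 6.11 on saline array 1 and 12.69, 12.63 and 12.44 on the other saline arrays. Kdm5d was at 7.98 to 8.48 after sham and 7.51 on saline array 1, against 3.58 to 3.81, and Uty at 8.47 to 8.61 and 8.47, against 4.46 to 4.75. Of the 30 arrays 6 had this pattern, the other 3 being LPS arrays, and 1 MCAO array of 1 day had both Xist (12.49) and Eif2s3y (9.52) at high levels. Eif2s3y, Kdm5d and Uty are thus among the 459 higher genes (differences of 5.39, 3.56 and 3.02), while Xist was not called (-4.33, adjusted p = 0.0906).

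Sham and saline arrays without this pattern can be compared only through saline array 1, which has no replicate and whose spread is assumed to be that of the other groups. Against it 114 genes were called (0.725%), 35 higher (0.223%) and 79 lower (0.502%), of which 62 were among the 804. With the pattern as a covariate over all 30 arrays, which rests on the LPS and saline groups that hold both kinds, 733 were called (4.66%), 345 higher (2.19%) and 388 lower (2.47%), of which 280 were among the 804. Of the 804, 59 were called in both, 30 of them higher. Without saline array 1 there were 740. These fits were added after the data were seen, and the part that sex has in any result was not tested beyond them.

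Of the genes tested, 5.11% were called, 2.92% higher and 2.19% lower. By at least 2-fold, 280 were higher and 128 lower. The 4 sham arrays lay outside the range of the 4 saline arrays in 2889 genes (18.4%), above it in 1304 (8.29%) and below it in 1585 (10.1%). The median difference over all genes was log2 0.002. Against saline arrays 1 and 2 alone, all bright as the sham arrays are, 651 genes were called (4.14%), 211 higher (1.34%) and 440 lower (2.8%), of which 411 were also called against all 4. Against saline arrays 3 and 4 alone the count was 222 (1.41%), 192 higher (1.22%) and 30 lower (0.191%). The split between higher and lower calls thus changed with the saline pair, from 32.4% higher against arrays 1 and 2 to 86.5% against arrays 3 and 4. Between the saline pairs themselves limma called 0 genes, with 1514 at an unadjusted p under 0.05.

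1 sham array weighed heavily on the counts. Without sham array 3, 227 genes were called, 150 higher and 77 lower, of which 223 were among the 804. Without sham array 4 there were 351, without saline array 4 there were 368, without sham array 2 there were 467, without saline array 2 there were 480 and without sham array 1 there were 505. Without sham array 3 and saline arrays 2 and 3 together, a choice made after the data were seen, 50 were called, 37 higher and 13 lower.

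**Figure D1:**
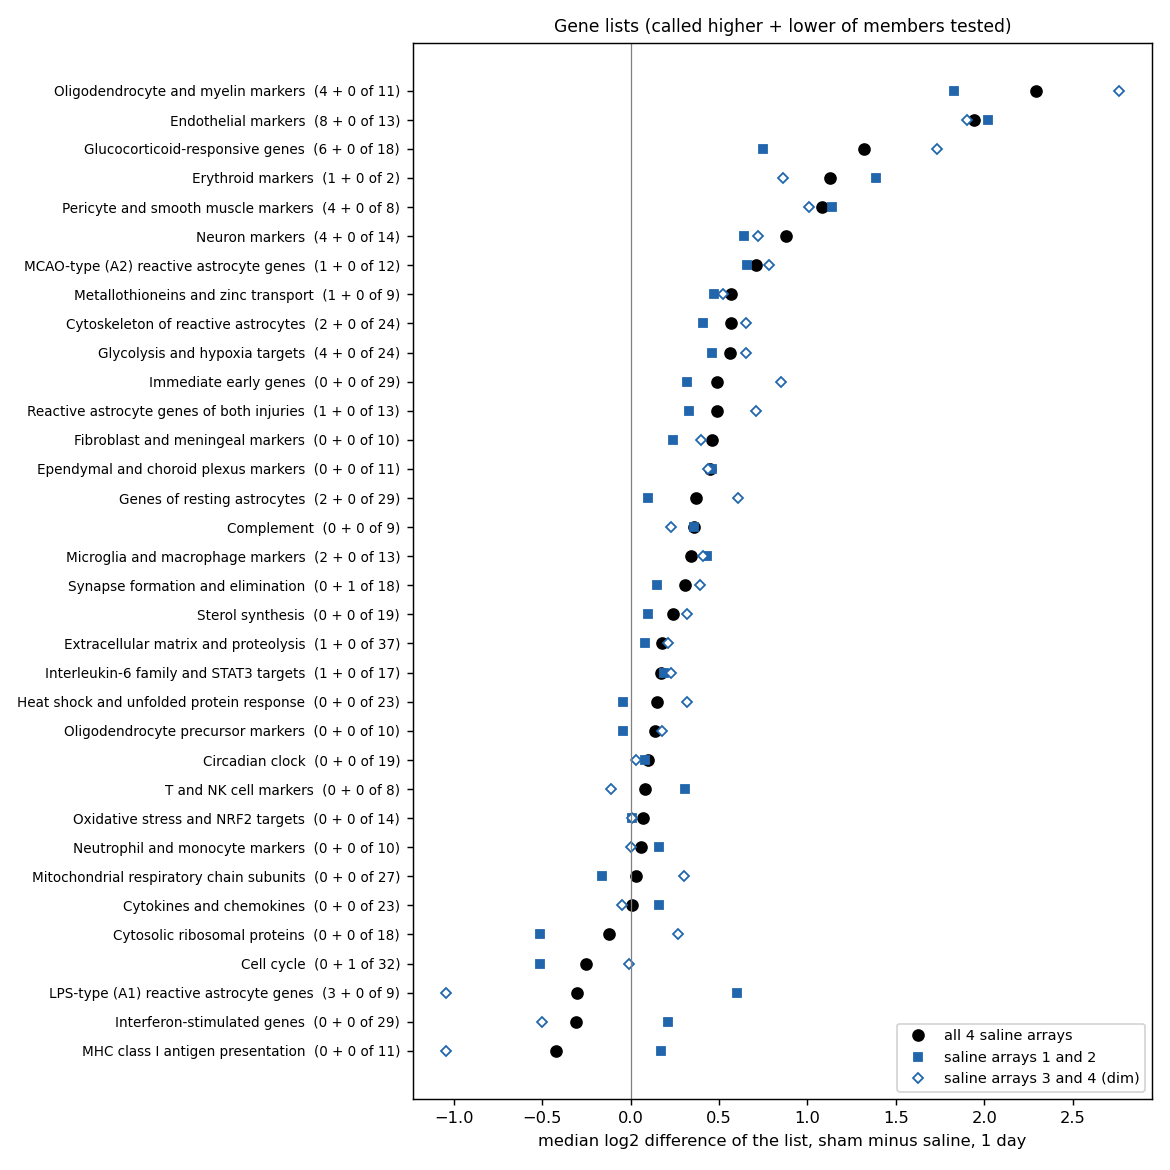
Median log2 difference (x axis, sham minus saline at 1 day) of each of 34 gene lists (rows), against all 4 saline arrays (black), saline arrays 1 and 2 (blue squares) and saline arrays 3 and 4 (open diamonds), with the number of members called higher and lower of those tested after each name. Oligodendrocyte, endothelial and glucocorticoid lists lie at 2.29, 1.94 and 1.32, and the LPS-type, interferon and MHC class I lists are among those whose medians change sign between the saline pairs.

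Defining astrocyte markers were at high levels in both groups. Aldh1l1 stood at 12.85, 12.78, 12.71 and 12.78 on sham arrays 1 to 4 and at 13.36, 12.29, 12.51 and 12.47 on saline arrays 1 to 4, a difference of 0.12 ± 0.33 SE (adjusted p = 0.898). The saline arrays spanned the sham arrays. The 8 defining markers, among them the glutamate transporters Slc1a2 and Slc1a3, the water channel Aqp4 and the glutamine synthetase Glul, had mean levels of 10.36 to 14.42 after sham and 10.12 to 14.08 after saline, with differences from 0.12 to 0.64. Fgfr3, a fibroblast growth factor receptor of astrocytes, was the called one among them: it read 14.16, 14.12, 14.02 and 14.09 after sham and 13.94, 13.27, 13.42 and 13.21 after saline (0.64 ± 0.18 SE, adjusted p = 0.0421), but not without sham array 3 (adjusted p = 0.0891) or against saline array 1 alone (0.847).

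Few genes of resting astrocytes passed the test. Of 29 tested, 2 were higher, Fgfr3 and Gjb6, 0 lower, against 2.92% of all genes higher, and the median was 0.37, against 0.10 with saline arrays 1 and 2 and 0.61 with the dim saline arrays 3 and 4. Gjb6, which encodes the gap junction protein connexin 30, lay between 13.85 and 14.07 on the sham arrays and at 13.56, 12.91, 13.16 and 12.90 on saline arrays 1 to 4. The groups did not overlap, and Gjb6 was 1.74-fold higher (log2 0.80 ± 0.17 SE, adjusted p = 0.00703), though with saline arrays 1 and 2 alone its adjusted p was 0.0522. The mean level of the list was 13.31 to 13.52 on the sham arrays and 13.62, 13.01, 12.91 and 12.85 on saline arrays 1 to 4. Saline array 1 was thus above every sham array, and against it alone 0 of the 29 were called, with a median of -0.04. With the Xist pattern as a covariate 0 were called and the median was -0.09.

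Endothelial genes included Abcb1a and Cldn5, the 2 largest of the 10 upward differences named by rule. Of 13 endothelial markers tested, 8 were higher and 0 lower, against 2.92% of all genes higher, with a median of log2 1.94. All 4 sham arrays were above all 4 saline arrays in 11 of the 13, against 8.29% of all genes. Abcb1a, the P-glycoprotein that pumps drugs out of brain capillaries, read 8.87, 8.78, 10.35 and 9.02 on sham arrays 1 to 4 and 4.70, 5.25, 5.56 and 5.21 on saline arrays 1 to 4. Every saline value was near the floor and every sham value was well above it (log2 4.08 ± 0.45 SE, adjusted p = 6.61e-06), so the 16.9-fold difference is not exact.

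Cldn5, the claudin that seals endothelial tight junctions, read 9.74, 9.88, 11.88 and 10.18 after sham and 6.04, 7.55, 6.21 and 6.51 after saline. Groups did not overlap, with sham array 3 highest and saline array 2 highest within their groups (3.85 ± 0.55 SE, adjusted p = 0.00044). Slco1a4, an organic anion transporter of the blood-brain barrier, read 9.56, 9.37, 10.62 and 9.78 against 5.64, 7.25, 6.54 and 6.23, a 10.7-fold difference (3.42 ± 0.42 SE, adjusted p = 3.89e-05). Flt1, a receptor for vascular endothelial growth factor, lay between 8.46 and 10.60 after sham and between 5.95 and 6.62 after saline (2.79 ± 0.42 SE, adjusted p = 0.000635). The receptor Tek was higher by 2.28, the clotting factor gene Vwf by 1.97, the adhesion molecule Esam by 1.94 and the growth factor receptor Kdr by 1.71.

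The other 5 endothelial members were not called. Cdh5, the cadherin of endothelial junctions, lay between 4.76 and 5.00 after saline and between 5.49 and 7.38 after sham (adjusted p = 0.0627), Pecam1 was at 5.17 to 6.30 after sham, and Eng differed by 0.81. Emcn and Tie1 stayed at or below 5.09 on all arrays but sham array 3, where they read 5.56 and 5.58. Sham array 3 was the highest sham array in all 13 members.

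Endothelial medians lay close together against either saline pair. The median was 2.02 with saline arrays 1 and 2, where 7 members were higher, and 1.90 with saline arrays 3 and 4, where 6 were. Without sham array 3, 7 were higher. Without sham array 3 and saline arrays 2 and 3, 4 were. Against saline array 1 alone 5 were higher, with a median of 2.16, without that array 7 were (1.78), and with the Xist pattern as a covariate 9 were (1.80). Abcb1a, Cldn5, Slco1a4 and Flt1 were called in all of these fits. Against saline array 1 alone they differed by 4.56, 4.38, 4.19 and 3.10, with adjusted p-values of 0.00228, 0.0262, 0.00213 and 0.0326.

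**Figure D2:**
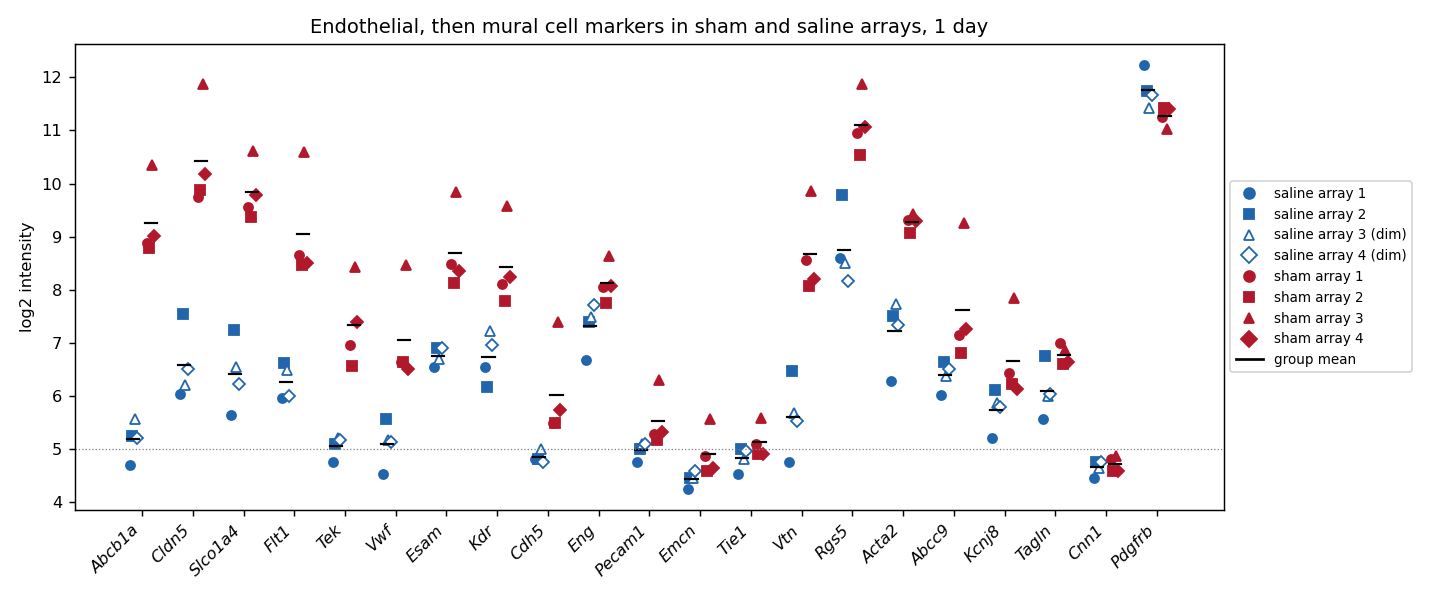
Log2 intensity (y axis) of 13 endothelial and then 8 mural cell markers (x axis) on each of the 4 saline arrays (blue, open for the dim arrays) and 4 sham arrays (red), with group means as bars and the filter floor of log2 5 dotted. The red points lie above the blue ones for Abcb1a (8.78 to 10.35 against 4.70 to 5.56) and 10 more endothelial genes, against 8.29% of all genes. Pdgfrb lies lower after sham without passing the test.

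4 of the 10 largest differences upwards among genes called against saline arrays 1 and 2 as well, and without overlap, were endothelial list members. Jcad, a protein of endothelial cell junctions, read 8.35, 8.23, 10.07 and 8.50 after sham against 5.00, 5.04, 5.73 and 5.04 after saline (log2 3.58 ± 0.38 SE, adjusted p = 6.61e-06). Jcad was also called against saline array 1 alone (3.79, adjusted p = 0.00337). Adgrf5, an adhesion G protein-coupled receptor, was higher by 3.00 ± 0.44 SE. Apold1, an endothelial early response gene, was higher by 2.95 ± 0.46 SE. Itm2a, a membrane protein, was higher by 2.85 ± 0.58 SE, and its sham arrays (10.50 to 11.66) lay above all saline arrays, of which array 2 stood out at 9.55 against 7.27 to 7.79.

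Mural cell genes, those of the pericytes and smooth muscle cells that lie on the outer side of the endothelium, had 4 of 8 tested higher and 0 lower, against 2.92% of all genes higher, with a median of 1.08. Myh11 and Anpep, also on the array, did not pass the filter and were not tested. Of the tested members, Cnn1 was below the floor on all 8 arrays. Rgs5, a regulator of G protein signalling in pericytes, read 10.95, 10.54, 11.88 and 11.06 on sham arrays 1 to 4 and 8.59, 9.78, 8.50 and 8.16 on saline arrays 1 to 4 (2.35 ± 0.44 SE, adjusted p = 0.00313). Acta2, the actin of smooth muscle, read 9.31, 9.07, 9.43 and 9.30 against 6.28, 7.51, 7.74 and 7.34, with no overlap (2.06 ± 0.47 SE, adjusted p = 0.0125). Vtn, which encodes vitronectin, lay between 8.07 and 9.86 against 4.76 to 6.46 (3.07 ± 0.80 SE, adjusted p = 0.0261), but its adjusted p was 0.0779 with saline arrays 1 and 2 and 0.108 without sham array 3. The growth factor receptor gene Pdgfrb, by contrast, lay at 11.03 to 11.42 after sham and 11.43 to 12.23 after saline (-0.49 ± 0.50 SE, adjusted p = 0.664). All 4 sham arrays were below all 4 saline arrays. The count of higher mural genes was 2 without sham array 3, 2 against saline arrays 1 and 2, 1 against saline arrays 3 and 4, and 2 without saline array 1. Acta2 was called against saline array 1 alone (2.99, adjusted p = 0.0476) and Rgs5 was not (2.51, 0.0826), and with the Xist pattern as a covariate 3 of the 8 were higher.

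Alas2, the heme synthesis enzyme of red cell precursors, was the called one of 2 erythroid genes tested, against 2.92% of all genes higher. It read 7.12, 7.18, 8.44 and 7.70 after sham and 5.43, 5.36, 5.91 and 5.95 after saline (1.95 ± 0.32 SE, adjusted p = 0.00146), and was called against saline array 1 alone (2.18, 0.0472). The other, Slc4a1, stayed between 4.17 and 5.25 on all 8 arrays. Hba-a1, a globin gene also on the array, did not pass the filter of log2 5 on at least 3 arrays and was not tested.

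Across the series the high endothelial level belonged to the 1-day surgery arrays. The mean log2 level of the 13 genes was 7.68 in the sham group at 1 day (7.19 to 8.71) and 7.71 in the MCAO group at 1 day (6.71 to 8.99). It was 5.73 after saline (5.36 to 5.92), 6.04 after LPS, 6.02 after sham at 3 days and 5.74 after sham at 7 days. The bright sham array of 3 days stood at 6.11, below all 4 sham arrays of 1 day. Summed intensity of the list was 3444 to 11336 on the sham arrays and 639 to 1029 on the saline arrays. Abcb1a was at 4.81 to 5.46 in the sham group of 7 days, whose arrays are all dim, against 8.78 to 10.35 at 1 day. In these bulk samples, more cells of a type and more RNA per cell cannot be told apart, and whether vascular cells or fragments entered the sort was not tested.

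**Figure D3:**
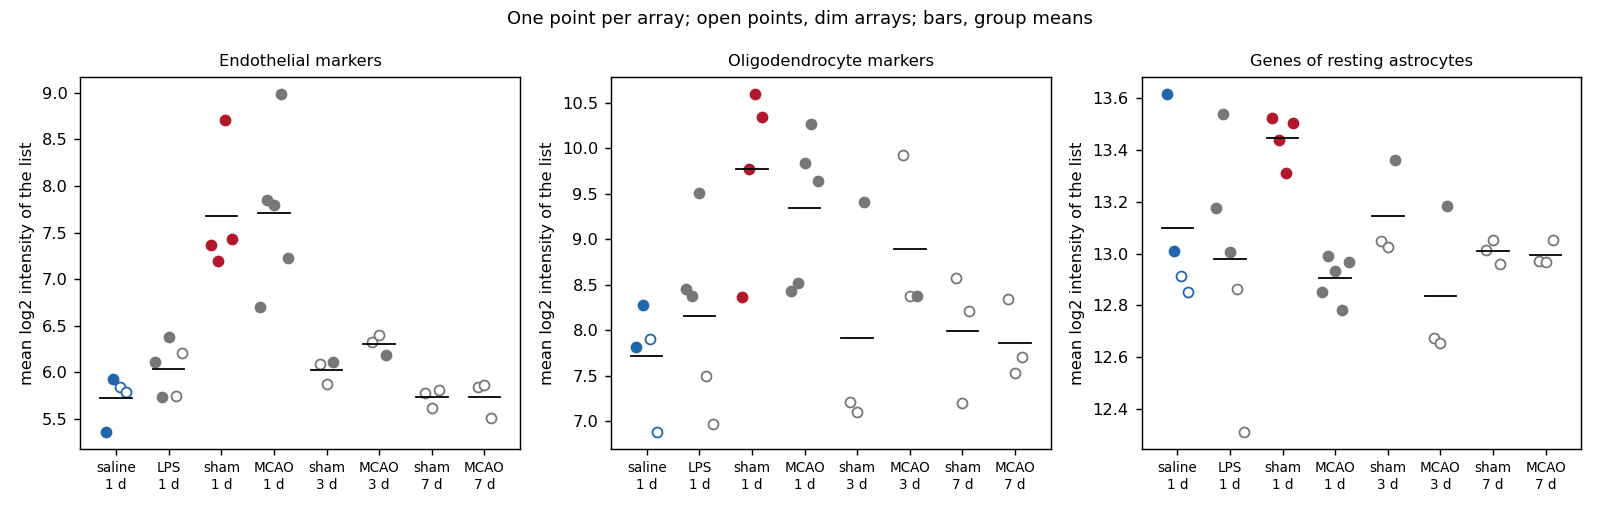
Mean log2 intensity (y axis) of 13 endothelial, 11 oligodendrocyte and 29 resting astrocyte genes on every array of the 8 groups (x axis), open points for dim arrays and bars for group means. Endothelial levels are 7.19 to 8.71 after sham at 1 day and 5.36 to 5.92 after saline, and the MCAO arrays of 1 day overlap the sham arrays.

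Several myelin genes were also higher. Of 11 oligodendrocyte and myelin markers tested, 4 were higher, 0 lower, against 2.92% of all genes higher, and their median of 2.29 was the highest of the 34 lists. Mobp, a myelin protein, read 10.49, 11.19, 11.84 and 12.16 on sham arrays 1 to 4 and 8.32, 8.08, 7.06 and 7.25 on saline arrays 1 to 4. Its groups did not overlap, and it was 13.4-fold higher (log2 3.75 ± 0.47 SE, adjusted p = 5.01e-05), and called against saline array 1 alone (3.11, adjusted p = 0.0476). The adhesion glycoprotein Mag was higher by 1.85. Mbp, myelin basic protein, read 12.63, 13.12, 13.72 and 13.89 against 11.58, 11.45, 10.63 and 10.54 (2.29 ± 0.46 SE, adjusted p = 0.00534), and its adjusted p was 0.0569 with saline arrays 1 and 2 and 0.253 with saline array 1 alone.

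The other myelin genes spread widely between arrays. Sham array 1 was the lowest sham array for many of them: Ermn, a cytoskeletal protein of oligodendrocytes, read 6.43 on it and 8.46 to 10.19 on the others, against 4.76 to 6.82 after saline (adjusted p = 0.0486), so that the groups overlapped. Mal, a myelin proteolipid, read 9.47 on sham array 1 and 11.19 to 12.70 on the rest, against 6.36 to 9.80 after saline (adjusted p = 0.0732). Mean list levels were 8.37, 9.77, 10.60 and 10.35 on sham arrays 1 to 4, against 6.88 to 8.28 on the saline arrays, 8.43 to 10.27 after MCAO at 1 day and 9.42 on the bright sham array of 3 days. Summed intensity ran from 18155 to 45188 after sham and from 12429 to 17706 after saline. Against saline arrays 1 and 2 alone 1 of 11 was higher, against saline arrays 3 and 4 it was 2, and without sham array 3 it was 2. Without saline array 1 it was 2, and Mobp was the called one both against saline array 1 alone and with the Xist pattern as a covariate. Markers of oligodendrocyte precursors, which stand before myelin formation, had 0 of 10 called, with 1 at an unadjusted p under 0.05 in limma, and a median of 0.14.

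Neuron markers had 4 of 14 higher, 0 lower, against 2.92% of all genes higher, and a median of 0.88. Stmn2, a microtubule protein of growing axons, read 8.05, 7.89, 9.56 and 8.11 after sham and 6.70, 7.60, 6.04 and 5.78 after saline (1.87 ± 0.51 SE, adjusted p = 0.0314), and Snap25, a synaptic vesicle fusion protein, lay between 9.37 and 11.53 against 7.92 to 8.79 (1.78 ± 0.48 SE, adjusted p = 0.0292). Sham array 3 was the highest sham array in 13 of the 14, and without it 0 were called. Against saline array 1 alone 0 were called as well, and with the Xist pattern as a covariate 3 were. The list's summed intensity was 3653 to 13358 after sham and 2067 to 6183 after saline, where array 2 stood at a mean level of 7.71 and the others at 6.79 to 6.92.

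Among immune cell markers the called genes were microglial. Of 13 microglia and macrophage genes 2 were higher (15.4%), 0 lower, against 2.92% of all genes higher, with a median of 0.34. Csf1r, the receptor for colony stimulating factor, was at 9.43, 8.24, 8.95 and 9.75 after sham and 6.54, 8.54, 7.62 and 7.45 after saline. Its difference was 1.56 ± 0.41 SE (adjusted p = 0.0282). The fractalkine receptor gene Cx3cr1 was at 5.52 to 6.36 against 5.13 to 5.32 (0.80 ± 0.21 SE, adjusted p = 0.0274). The ranges of Csf1r overlapped through saline array 2, and neither was called against saline arrays 1 and 2 alone (adjusted p = 0.0832 for each), while Csf1r was called against saline array 1 alone (2.55, adjusted p = 0.0476). Summed intensity of the microglial list was 1046 to 1854 after sham and 714 to 1114 after saline, and its members Aif1 and Ptprc were near the floor on all 8 arrays, between 4.09 and 5.09. Neutrophil and monocyte markers (0 of 10, median 0.06), T and NK cell markers (0 of 8, 0.08), fibroblast and meningeal markers (0 of 10, 0.46) and ependymal and choroid plexus markers (0 of 11, 0.45) had no member called by limma, with 0, 0, 1 and 1 members at an unadjusted p under 0.05. The part that vascular, myelin, neuronal and microglial RNA has in the results that follow was not tested.

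Glucocorticoid target genes had the largest median of the 23 programme lists. Of 18 tested, 6 were higher, 0 lower, against 2.92% of all genes higher, and the median was 1.32. Fkbp5, a chaperone partner that dampens the glucocorticoid receptor, read 8.94, 9.48, 11.26 and 8.82 on sham arrays 1 to 4 and 7.63, 6.23, 5.95 and 5.88 on saline arrays 1 to 4. All sham arrays were above all saline arrays, with sham array 3 highest, and the difference was 9.21-fold (log2 3.20 ± 0.75 SE, adjusted p = 0.015). Tsc22d3, which encodes the glucocorticoid-induced leucine zipper, read 12.75, 12.52, 13.01 and 12.42 after sham and 11.66, 9.26, 9.80 and 9.53 after saline (2.62 ± 0.56 SE, adjusted p = 0.00851). Its sham arrays lay close together, while saline array 1, the one with Y-linked RNA, stood above the other saline arrays.

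Sgk1, a kinase that regulates ion channels and transporters, read 8.78, 10.14 and 9.67 on sham arrays 1, 2 and 4, 12 on sham array 3, and 7.89, 8.28, 7.90 and 7.30 after saline (2.30 ± 0.66 SE, adjusted p = 0.0406). Cdkn1a, the cell cycle inhibitor p21, was higher by 1.94 ± 0.49 SE, Sult1a1, a sulfotransferase, by 1.94 ± 0.44 SE, and the metallothionein Mt2 by 1.21 ± 0.34 SE. Mt1 and Mt2 are closely related genes, and whether their probe sets share signal was not tested. Saline array 2 held both at sham levels (14.42 and 14.10), the other saline arrays held Mt1 at 12.13 to 12.23, and Mt1 was not called (1.44 ± 0.49 SE, adjusted p = 0.0831).

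Several members did not pass the test. Plin4, a lipid droplet coat protein, differed by 1.79 (adjusted p = 0.0758), the transcription factor gene Zbtb16 by 1.78 (0.0547) and the arrestin relative Arrdc2 by 1.44 (0.104). Smaller differences were seen for the stress gene Ddit4 (0.64), the NF-kappaB inhibitor Nfkbia (0.63), the phosphatase Dusp1 (0.63), Errfi1 (0.58), Per1 (0.37) and Klf9 (0.33). Pdk4 (-0.14) and Angptl4 (-0.44), metabolic targets of the hormone in other tissues, were slightly below saline without passing.

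**Figure D4:**
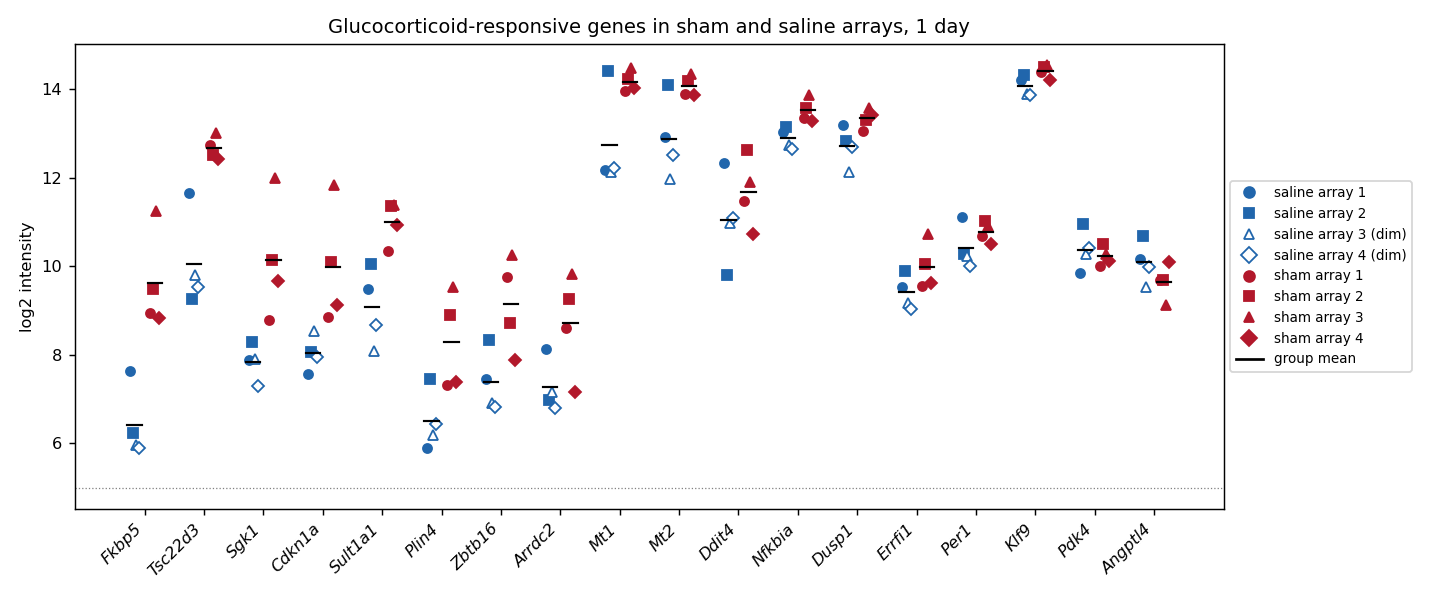
Log2 intensity (y axis) of the 18 glucocorticoid-responsive genes tested (x axis) on each saline array (blue, open for the dim arrays) and sham array (red), with group means as bars and the filter floor of log2 5 dotted. Fkbp5, Tsc22d3, Sgk1, Cdkn1a and Sult1a1 separate the groups, sham array 3 (red triangle) is the highest sham array in 14 genes, and Klf9 and Pdk4 lie together in both groups.

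The size of the glucocorticoid shift depended on which arrays were compared. Its median was 0.75 against saline arrays 1 and 2, with 1 member called higher (Cdkn1a), and 1.73 against the dim saline arrays 3 and 4, with 4. Without sham array 3, 1 member was called, Tsc22d3 (adjusted p = 0.037), and Fkbp5 had a difference of 2.66 (adjusted p = 0.0772). Without sham array 3 and saline arrays 2 and 3 it was 0. Against saline array 1 alone 0 of the 18 were called and the median was 0.80, where Tsc22d3 differed by 1.02 (adjusted p = 0.614), Sgk1 by 2.26 (0.329) and Fkbp5 had an adjusted p of 0.459. With the Xist pattern as a covariate 0 were called and the median was 0.58, and without saline array 1 there were 3 and it was 1.24. Mean list levels were 10.86, 11.34, 11.83 and 10.74 on sham arrays 1 to 4 and 10.24, 10.28, 9.64 and 9.66 on saline arrays 1 to 4, so that each sham array was above each saline array. Other 1-day groups also had high levels, with means of 11.46 after MCAO and 11.01 after LPS. Sham arrays lay at 10.38 to 10.92 at 3 days and 9.82 to 10.24 at 7 days. Fkbp5 was at 7.69 to 9.32 after sham at 3 days and at 6.49 to 6.60 at 7 days, on dim arrays.

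The glucocorticoid receptor binds pairs of hexamers spaced by 3 bases, and promoter windows of the 18 genes were searched for them to show where such letters lie. RefSeq windows (GRCm38.p6) from 250 bases before to 50 after each annotated start were available for 16 of the genes, in 26 windows. The full motif, AGAACA, any 3 bases and then its reverse complement TGTTCT, read on both strands, was in 3 of 32851 windows of all genes (0.00913%) and, among the list, in 1 window of Sgk1. Its shorter core, GNACA, any 3 bases and TGTNC, where N is any base, which is contained in the longer motif, was in 156 (0.475%), among the list in windows of Sgk1 and Mt1. The stretches around both matches are shown because no other window of the list held either motif. Sequences run 5′ to 3′ on the plus strand with the match in capitals, at chr10:21993641-21993775 for Sgk1, positions -249 to -115 from 1 of its 6 starts, and at chr8:94178935-94179067 for Mt1, positions -154 to -22 from its start.
Sgk1: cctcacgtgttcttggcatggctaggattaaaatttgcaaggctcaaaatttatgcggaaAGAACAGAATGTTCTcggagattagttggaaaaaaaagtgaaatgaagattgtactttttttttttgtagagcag
Mt1: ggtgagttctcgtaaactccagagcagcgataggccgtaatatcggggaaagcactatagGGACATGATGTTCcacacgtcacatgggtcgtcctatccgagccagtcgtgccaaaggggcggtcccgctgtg
A match is a description of letters and not a bound site, and binding was not measured here.

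Few reactive astrocyte genes were higher: 1 of 13 (7.7%) for both injuries, 3 of 9 (33.3%) for LPS and 1 of 12 (8.3%) for MCAO. Each share was above the 2.92% of all genes that were higher. The lists of genes raised by both injuries, by LPS (A1) and by MCAO (A2) came from the study's own use of these arrays, so their counts are no independent evidence of a direction. Of 13 genes of both injuries 1 was higher, Serpina3n, a secreted protease inhibitor, at 10.08, 9.99, 11.30 and 10.15 after sham and 9.68, 8.52, 9.08 and 8.87 after saline. The groups did not overlap (1.34 ± 0.35 SE, adjusted p = 0.0274), but the adjusted p was 0.0929 against saline arrays 1 and 2 and 0.139 without sham array 3. Serpina3n differed by 0.70 against saline array 1 alone (adjusted p = 0.605), and with the Xist pattern as a covariate by 0.74 (0.29). Levels were 13.48 to 13.64 after MCAO at 1 day and 13.53 to 14.50 after LPS, above every sham and saline array.

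Gfap, the intermediate filament of reactive astrocytes, read 12.03, 12.60, 13.05 and 12.12 after sham, and on saline arrays 1, 2 and 4 it lay between 10.78 and 11.26 and on array 3 at 12.42. Saline array 3 overlapped the sham range, and the difference of 1.08 ± 0.42 SE was not called (adjusted p = 0.139), with 1.43 (adjusted p = 0.108) against saline arrays 1 and 2 and 1.67 (0.231) against saline array 1 alone. With arrays weighted by how closely they followed the model, 6074 of 15726 genes were called, Gfap among them (0.95, adjusted p = 0.00459). That fit gave weights of 0.272 and 0.213 to saline arrays 1 and 2, and of 1.63 and 4.28 to saline arrays 3 and 4. Vim, the filament protein vimentin, read 9.71, 9.77, 11.76 and 9.94 after sham and 10.21, 10.61, 9.65 and 9.77 after saline (0.24 ± 0.52 SE, adjusted p = 0.866), a difference that was -0.25 without sham array 3. Lcn2, a secreted acute phase protein, was near the floor on 3 sham arrays (4.91 to 5.09) and at 7.55 on sham array 3, against 4.95, 5.93, 6.60 and 4.95 after saline (0.04 ± 0.72 SE, adjusted p = 0.991). Mean levels of the list were 7.78 to 8.01 on sham arrays 1, 2 and 4 and 9.51 on sham array 3, against 7.30 to 8.41 after saline and 12.16 to 12.64 after MCAO at 1 day.

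Of 9 LPS-type genes tested, 3 were higher (33.3%), 0 lower, against 2.92% of all genes higher, and the median was -0.30. The 3 were Fkbp5, which is also a glucocorticoid target, the adhesion molecule Amigo2, at 9.74, 10.57, 10.03 and 10.09 after sham against 9.23, 7.64, 8.21 and 7.53 after saline (1.96 ± 0.49 SE, adjusted p = 0.0225), and the granule proteoglycan Srgn, at 7.86 to 9.38 against 5.49, 8.55, 6.32 and 6.07 (1.78 ± 0.47 SE, adjusted p = 0.0272). None of these was called against saline arrays 1 and 2 alone, nor without sham array 3. Fkbp5 and Srgn were called against saline arrays 3 and 4 (0.0371 and 0.0478), and Srgn also against saline array 1 alone (2.89, adjusted p = 0.0476) and without sham array 3 and saline arrays 2 and 3 (adjusted p = 0.0183). Interferon-driven members such as Gbp2 and Iigp1 lay on the other side through saline array 3, and the list median was 0.60 with saline arrays 1 and 2 and -1.04 with arrays 3 and 4. Of 12 MCAO-type genes 1 was higher (8.3%), Tm4sf1, a membrane protein that endothelial cells also make. It read 8.96, 8.20, 10.35 and 8.78 after sham and 5.43, 6.49, 6.49 and 5.56 after saline (3.08 ± 0.65 SE, adjusted p = 0.0072), and 12.96 to 13.89 after MCAO at 1 day. The median of these 12 was 0.71.

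**Figure D5:**
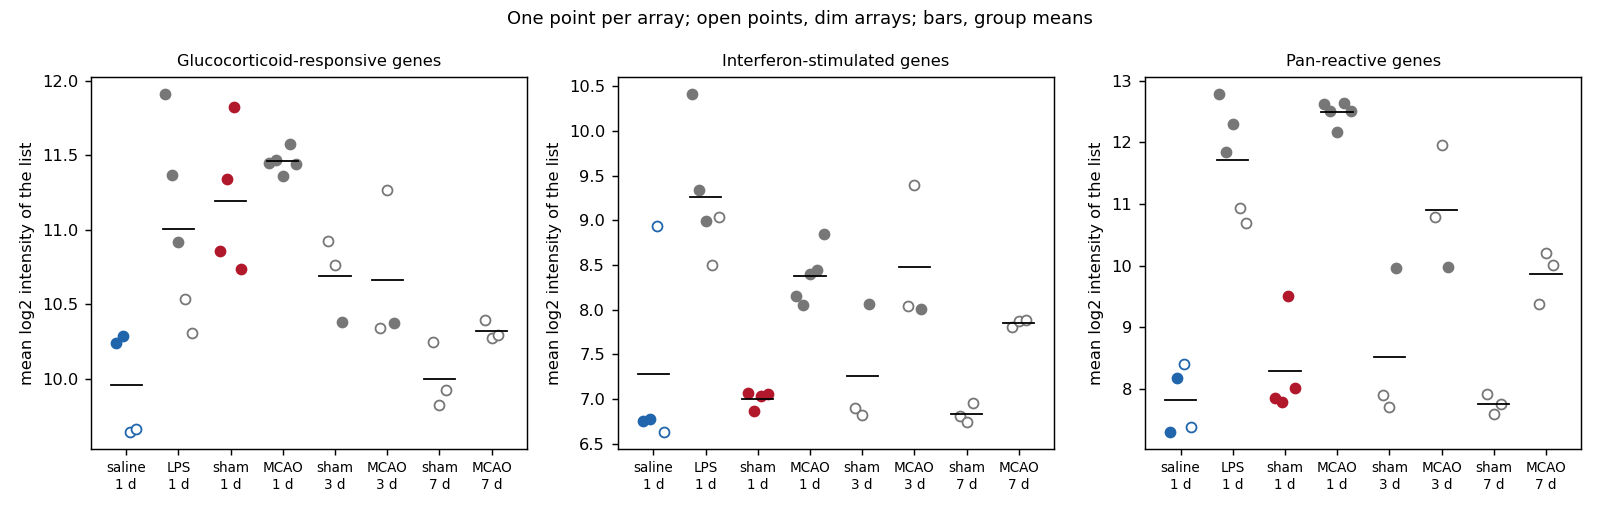
Mean log2 intensity (y axis) of 18 glucocorticoid-responsive, 29 interferon-stimulated and 13 reactive astrocyte genes on every array of the 8 groups (x axis), open points for dim arrays and bars for group means. Sham arrays of 1 day lie at 10.74 to 11.83, 6.86 to 7.06 and 7.78 to 9.51 in these lists, and 1 dim saline array lies at 8.94 in the interferon list, within the range after LPS.

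Interferon-stimulated genes had 0 of 29 called in either direction, with a median of -0.31, and MHC class I genes 0 of 11 with a median of -0.42, and in both lists 0 had an unadjusted p under 0.05 in limma. Both medians were carried by saline array 3, which was the highest saline array in 28 of the 29 interferon genes and in 9 of the 11 MHC genes. Iigp1, an interferon-induced GTPase, read 11.94 on saline array 3, 4.58 to 5.25 on the other saline arrays and 4.95 to 5.98 on the sham arrays. H2-D1, a classical MHC class I chain, read 13.03 on it, 7.58 to 8.97 on the other saline arrays and 7.10 to 10.12 after sham. The mean level of the interferon list was 8.94 on saline array 3, 6.63 to 6.77 on the other saline arrays and 6.86 to 7.06 on the sham arrays, against 8.51 to 10.41 after LPS. Its median was 0.21 against saline arrays 1 and 2, where 1 member was called higher, and -0.50 against arrays 3 and 4. The label of saline array 3 names saline alone, and the source of these transcripts was not tested.

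Glycolysis and hypoxia genes had 4 of 24 higher (16.7%), 0 lower, against 2.92% of all genes higher, and a median of 0.56. Ndrg1, a gene induced by low oxygen and by glucocorticoids and strongly made in myelin-forming cells, lay between 9.25 and 11.16 on the sham arrays, highest on array 3, and at 7.49, 7.79, 8.04 and 7.04 after saline (2.46 ± 0.43 SE, adjusted p = 0.00185), and was called against either saline pair and without sham array 3, but not against saline array 1 alone (adjusted p = 0.0728). Adm, the vasodilator adrenomedullin, was at 8.59, 8.51 and 8.25 on sham arrays 1, 2 and 4 and at 12.42 on sham array 3, against 7.03 to 7.56 after saline (2.16 ± 0.62 SE, adjusted p = 0.0408), and without that array its difference was 1.17 (adjusted p = 0.176). Phosphofructokinase Pfkl was higher by 1.02 ± 0.26 SE and hexokinase Hk1 by 0.83 ± 0.24 SE. The hypoxia targets Vegfa (0.46) and Egln3 (-0.15) were not called.

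Among the remaining programmes single genes differed, against 2.92% of all genes higher and 2.19% lower. Fn1, the matrix protein fibronectin, was the called one of 37 matrix and proteolysis genes, at 8.93, 9.09, 10.72 and 9.04 after sham and 6.54, 6.54, 7.26 and 6.86 after saline (2.64 ± 0.43 SE, adjusted p = 0.00111), and the median of that list was 0.18. Of 24 cytoskeletal genes of reactive astrocytes, the membrane-binding annexins Anxa3 (2.25 ± 0.55 SE, from a saline level of 4.39 to 5.36) and Anxa5 (0.76 ± 0.22 SE) were higher, with a median of 0.57. Lifr, the receptor for leukaemia inhibitory factor, was the called one of 17 genes of the interleukin-6 family and its targets (0.82 ± 0.22 SE, adjusted p = 0.0315), and of 9 metallothionein and zinc transport genes Mt2 was called. Ccnd2, a cyclin of the first cell cycle phase, was lower, at 10.42 to 10.45 after sham against 10.97 to 11.78 after saline (-0.93 ± 0.25 SE, adjusted p = 0.0274), 1 of 32 cell cycle genes, with a list median of -0.25. Nlgn2, an adhesion molecule of inhibitory synapses, was lower by -0.88 ± 0.25 SE, 1 of 18 genes of synapse formation and elimination. None of Anxa3, Anxa5, Lifr, Ccnd2 and Nlgn2 was called without sham array 3, with adjusted p-values from 0.0764 (Ccnd2) to 0.12 (Lifr), while Fn1 was (0.00815), as it was against saline array 1 alone (2.90, adjusted p = 0.0472).

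Of the 345 lower genes, Ccnd2 and Nlgn2 were the members of a list. The 10 with the largest differences among those called against saline arrays 1 and 2 as well ran from -1.90 to -1.38, against 2.79 to 4.08 for the 10 upward ones. Fam193b was lower by -1.90 ± 0.41 SE. Fam181a, a gene of neural precursors and astrocytes, read 7.20, 7.09, 6.34 and 7.32 after sham and 8.71, 9.68, 8.18 and 8.66 after saline (-1.82 ± 0.33 SE, adjusted p = 0.00255). Tle2, a transcriptional corepressor, lay between 7.43 and 8.46 after sham and 9.54 and 9.94 after saline (-1.72 ± 0.42 SE, adjusted p = 0.0198).

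Gli1, the transcription factor that reports hedgehog signalling, read 7.85, 8.33, 7.09 and 7.46 after sham and 8.90, 9.92, 8.74 and 9.22 after saline (-1.52 ± 0.40 SE, adjusted p = 0.0265), and its adjusted p was 0.109 without sham array 3. Tle2, Micall2 and Sned1 also lost their calls without that array (0.0815, 0.0516 and 0.0515). The pseudouridine synthase Trub1 (-1.55) was at 6.94 to 6.98 on all 4 sham arrays, Sned1 (-1.52), an extracellular matrix protein, at 8.46 to 9.27, and the RNA processing protein Zc3h18 (-1.42) at 7.18 to 7.55. Dcun1d1 (-1.66), Slc2a4rg-ps (-1.50) and Micall2 (-1.38) completed the 10. With the mean of its probe sets in place of the brightest, Dcun1d1 changed sign to 0.13. Against saline arrays 3 and 4 the 10 differences ran from -1.83 (Fam193b) to -1.05 (Micall2), and Dcun1d1 was the called one (-1.31, adjusted p = 0.0387). Against saline array 1 alone Trub1 (-2.50, adjusted p = 0.00169) and Sned1 (adjusted p = 0.0294) were called, and with the Xist pattern as a covariate 6 of the 10 were, Fam193b, Fam181a, Dcun1d1, Trub1, Sned1 and Micall2.

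No clock gene passed the limma test: 0 of 19 were called, 0 had an unadjusted p under 0.05, and the median was 0.10. Per1 differed by 0.37, Per2 by 0.19, Nr1d1 by 0.24, Arntl by -0.30 and Dbp, an output gene of the clock, by -0.64 (adjusted p = 0.354). Dbp was at 12.78, 12.79, 11.88 and 13.20 after sham and between 13.20 and 13.42 after saline. Immediate early genes, which respond to cell stimulation and to dissociation of tissue, had 0 of 29 called, with 8 at an unadjusted p under 0.05 in limma, and a median of 0.49. Their largest differences were those of the transcription factor genes Klf2 (1.90, adjusted p = 0.0547) and Klf6 (1.34, 0.0611) and of Ier3 (1.65, 0.0867), while Fos was at 14.19 to 14.43 after sham against 13.70 to 14.12 after saline (0.52 ± 0.20 SE, adjusted p = 0.12) and Egr1 at 11.57 to 12.84 against 11.88 to 13.42 (-0.45). No member was called in sterol synthesis (0 of 19, median 0.24), complement (0 of 9, 0.36), cytokines and chemokines (0 of 23, 0.01), oxidative stress (0 of 14, 0.07), heat shock and unfolded protein response (0 of 23, 0.15), respiratory chain (0 of 27, 0.03) and cytosolic ribosomal protein genes (0 of 18, -0.12), where 2, 0, 2, 2, 2, 3 and 3 members had an unadjusted p under 0.05 in limma.

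A set of genes kept its call whichever single array was left out. In the fits that left out 1 of the 8 arrays in turn, 188 genes kept their call and direction in all, 126 higher and 62 lower, and 43 of these, 33 higher and 10 lower, were also called without sham array 3 and saline arrays 2 and 3. Of the 43, 41 were called with the Xist pattern as a covariate. The 43 were chosen by fits that share their sham and saline arrays with that one, so this count is no independent support. The Xist pattern lies on 3 of the saline arrays, so leaving out 1 array cannot remove it, and the Y-linked Kdm5d is among the 188. The genes named next were chosen after their values were seen. Sdc4, the heparan sulfate proteoglycan syndecan 4, which astrocytes make, read 13.98, 13.64, 13.11 and 13.77 after sham and 11.02, 11.46, 11.43 and 11.22 after saline, a difference of 2.35 that was as large without the 3 arrays (2.68) and against saline array 1 alone (2.61, adjusted p = 0.00213). Sham array 3 was here the lowest sham array, in contrast to the vascular genes. Its mean was 13.90 after MCAO at 1 day, 12.19 after LPS, 11.95 after sham at 3 days and 11.76 after sham at 7 days.

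Pfkm, the muscle-type phosphofructokinase, lay between 13.74 and 13.98 after sham and 12.56 and 13.27 after saline (1.01, adjusted p = 0.000764), and Idh2, mitochondrial isocitrate dehydrogenase, between 12.44 and 12.77 and 10.77 and 12.15 (1.18, adjusted p = 0.00694), although Idh2 was not called against saline arrays 1 and 2, and neither was called against saline array 1 alone (adjusted p = 0.12 and 0.26). The lipase-like Abhd2 (1.61) was at 11.97 to 12.14 against 10.19 to 10.78, and the ubiquitin ligase Znrf3 (1.37), which dampens Wnt signalling, at 11.53 to 11.85 against 10.04 to 10.68. Also in the set were genes named above, among them Jcad, the endothelial list members Abcb1a, Cldn5, Slco1a4 and Flt1, the mural Rgs5 and the myelin gene Mobp. The phosphatase Ptprb (2.58), the transporter Abcg2 (2.68) and Atp10a (2.02) were in it too, each highest on sham array 3. The neuronal transcription factor gene Bcl11b (2.28), Scn4b (1.22) and Lamp5 (1.27) were in the set as well, although none of the 14 neuron markers was. Lower genes of the set included Tnpo3 (-1.28), a nuclear import receptor, Mrtfa (-1.14), a coactivator of actin-responsive genes, Spred3 (-1.17) and Lzts3 (-1.01).

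Sham surgery at 7 days was set beside both 1-day groups, with which it shares arrays in the comparisons, and its 3 arrays were all dim. Its arrays carried Y-linked RNA, as the sham arrays of 1 day did, and Kdm5d differed between them by -0.0566. Against it the sham arrays of 1 day had 867 genes called (5.51%), 685 higher (4.36%) and 182 lower (1.16%), and it differed from saline in 56 (0.356%), 26 higher (0.165%) and 30 lower (0.191%). For Abcb1a the difference between sham at 1 and 7 days was 4.06, for Cldn5 4.48, for Mobp 4.27 and for Fkbp5 3.09, and the sham level at 7 days was 5.20, 5.94, 7.15 and 6.54. The 10 upward genes had group means of 5.05 to 7.93 after sham at 7 days and 5.18 to 8.07 after saline. The 10 lower genes had means of 6.07 to 9.79 after sham at 7 days and 6.80 to 10.73 after saline.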

How the data were processed

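Per the labels' protocols, FACS-sorted astrocytes gave about 20 ng of RNA each, which was put on Affymetrix mouse arrays after 2 rounds of amplification. The deposited series table gives 1 intensity per probe set and array on a linear scale, from 9 to 35553, normalised by the authors with RMA, per the submitters' processing notes. Raw scanner files were not used here. Of 45037 probe sets, 34945 carried 1 gene symbol, 932 several and 9160 none; 34741 matched RefSeq (GRCm38.p6). For each of 18193 genes the probe set of highest mean over 30 arrays was taken as log2, and 15726 genes at log2 5 (32 on the linear scale) or more on at least 3 arrays were kept.

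Differences were tested 2-sided with limma 3.58.1 in R 4.3.3 as contrasts of 1 model over the 8 groups (22 residual and 4.55 prior degrees of freedom), so errors rest on a variance pooled over all groups, and p-values were adjusted by Benjamini and Hochberg. The fit was also run on simulated arrays with independent normal noise around each gene's mean. These held no dim arrays, no arrays that stood apart and no Xist pattern, so that run cannot speak for their effect. Saline arrays 1 and 2, and 3 and 4, were also given groups of their own. Replicate numbers did not pair the arrays: deviations of same-numbered sham and saline arrays correlated at r of 0.109, 0.0389, 0.0728 and 0.0605.

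Gene lists (34, with 606 genes, of which 537 were tested) were described by counts and medians, with no set test. Named were the 10 largest called differences each way without overlap that were also called with saline arrays 1 and 2, then Gfap, Vim, Lcn2, Serpina3n and Aldh1l1, up to 3 called members per list, and members of the clock, glucocorticoid and immediate early lists. Other list members that are named were chosen after their values were seen. The comparison, lists and members were chosen with earlier results of these data known. Alternatives were other filters, scalings, probe set choices and variance models, the 8 arrays alone with and without a replicate block, stricter thresholds and leaving out each array; the dim arrays as a covariate, the removal of sham array 3 and saline arrays 2 and 3, saline array 1 alone, and the pattern of Y-linked genes near the floor with high Xist as a covariate were added after the data were seen.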

Additional observations from a re-analysis of the deposited data

Results flagged for a closer look

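Levels of the followed genes and lists were looked over within each group for an array far from the other 3, by the ratio of its gap to the group's range. Of 204 groups of 4 arrays looked at, 32 held such an array, and 16 of the 32 were sham array 3. Chance gives about 1 in 20 for independent groups, but single genes were looked at beside the lists that hold them. Xist and the 3 Y-linked genes, already described above, were also among the items, so the count is not set against chance. No explanation was tested for any of the 32.

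Sham array 3 was far above the other sham arrays for the vascular genes Abcb1a (10.35, others 8.78 to 9.02), Jcad (10.07, others 8.23 to 8.50) and Flt1 (10.60, others 8.46 to 8.65), and for the endothelial list as a whole (mean level 8.71, others 7.19 to 7.43). The same array was high for the injury genes Vim (11.76, others 9.71 to 9.94), Lcn2 (7.55, others 4.91 to 5.09) and Serpina3n (11.30, others 9.99 to 10.15) and for the list of genes of both injuries (9.51, others 7.78 to 8.01). It was high too for Fn1 (10.72), Anxa3 (8.57), Adm (12.42, others 8.25 to 8.59), the neuronal genes Stmn2 (9.56) and Snap25 (11.53), the neuron list (8.91), the interleukin-6 list (8.60) and the glycolysis and hypoxia list (11.44, others 10.84 to 10.89).

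Among saline arrays, array 3 was far above the others for the interferon list (8.94, others 6.63 to 6.77), the MHC class I list (10.16, others 7.53 to 7.77) and Jcad (5.73, others 5.00 to 5.04). Saline array 2 stood apart for Adgrf5 (6.41, others 4.95 to 5.04), Mt1 (14.42, others 12.13 to 12.23) and the neuron list (7.71, others 6.79 to 6.92). Saline array 1 was far above the others for the Y-linked genes Eif2s3y (11.72, others 3.58 to 3.81), Kdm5d (7.51) and Uty (8.47) and far below them for Xist (6.11, others 12.44 to 12.69). It was high for Sned1 (11.25), Anxa5 (12.80) and Fos (14.12, others 13.70 to 13.73), and saline array 4 was low for the MCAO-type list (5.52, others 5.91 to 5.95). Sham array 4 was high for the clock list (9.92, others 9.73 to 9.75) and sham array 2 low for the interferon list (6.86, others 7.03 to 7.06).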

How the results depend on the processing

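The main count of 804 genes, 459 higher and 345 lower, moved most with array weights (6074, 3397 higher and 2677 lower), with the dim arrays as a covariate, an alternative added after the data were seen (1851, 787 and 1064), without sham array 3 and saline arrays 2 and 3, also added (50, 37 and 13), and with saline array 1 alone, also added (114, 35 and 79). Saline arrays 3 and 4 alone gave 222 (192 and 30), and saline arrays 1 and 2 alone gave 211 higher. An adjusted p under 0.01 left 154 (112 and 42), and a 2-fold minimum 408 (280 and 128). With the mean of each gene's probe sets in place of the brightest, 763 genes were called, of which 508 were among the 804. Leaving out 1 array in turn gave 227 to 740 called, 150 to 512 higher and 77 to 343 lower. The 8 arrays alone gave 616 lower. With the replicate numbers as a block those 8 arrays gave 605 called, 300 of them higher, against 1166 without the block, and the numbers did not pair the arrays. The share of higher calls was 57.1% in the main setting, 47.2% with the 8 arrays alone, 42.5% with the dim arrays as a covariate, 30.7% with saline array 1 alone, 47.1% with the Xist pattern as a covariate and 53% and 64.9% after quantile normalisation and median centring. The causes were not tested. Sham at 1 against 7 days gave 4988 calls with those groups alone against 867, and sham at 7 days against saline gave 90 with quantile normalisation and 0 with those groups alone, against 56.

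Of 51 called genes followed singly, 29 stayed called with saline arrays 1 and 2, 23 with arrays 3 and 4, 25 without sham array 3, 14 without the 3 arrays, 15 with saline array 1 alone and 24 with the Xist pattern as a covariate. With the replicate block Serpina3n lost its call (adjusted p = 0.0518) and Gfap gained one (0.035). The sign changed in 8 genes: Dcun1d1 with the mean of its probe sets (0.13), Mt1 without probe sets that can match several transcripts (-0.0496), Vim with saline arrays 1 and 2 (-0.11), leaving out 1 array (-0.25 without sham array 3, to 0.43), with the dim arrays as a covariate (-0.29) and without the 3 arrays (-0.18), Lcn2 after quantile normalisation (-0.0202), with array weights (-0.12), saline arrays 3 and 4 (-0.13), leaving out 1 array (-0.60 without sham array 3, to 0.37) and with that covariate (-0.31), Aldh1l1 after quantile normalisation (-0.0344), with saline arrays 1 and 2 (-0.0482), that covariate (-0.21), without the 3 arrays (-0.11), with saline array 1 alone (-0.58) and the Xist covariate (-0.79), Per1 (-0.34 and -0.58) and Npas2 (-0.63 and -0.71) in these last 2, and Anxa5 with saline array 1 alone (-0.0068). Of these, Dcun1d1 and Anxa5 were called in the main setting. Genes near the floor of log2 5, such as Abcb1a after saline, have no exact fold.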
